A study of Mus musculus with 4 samples.

Results

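The subcortical maternal complex is an assembly of oocyte proteins that lies beneath the plasma membrane of the egg and the cleaving embryo. The RNA of 6 genes of this complex was examined, namely Nlrp5, Ooep, Tle6, Khdc3, Padi6 and Zbed3. They were taken from the deposited table by name. All 6 symbols matched an Ensembl identifier there, out of the 30049 genes listed.

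The study asked how dimethyl sulfoxide (DMSO), a solvent and cryoprotectant, alters the RNA of mouse embryos at the 2-cell stage, which was measured by RNA-seq. The control group consists of 2 libraries of wild type BDF1*BDF1 F2 embryos grown in KSOM, a culture medium for preimplantation embryos. The DMSO group consists of 2 libraries of embryos of the same strain and genotype, grown in KSOM with 2% DMSO for 24 h from the zygote onward. In both groups the zygotes came from hormone-primed adult BDF1 females mated with BDF1 males, and were taken 18 h after human chorionic gonadotropin per the labels. Embryos were pooled, with 50 collected for each group, and the number of embryos in a single library is not stated. Nothing states that the libraries of a group came from separate cultures or animals, so p-values measure the spread between these libraries, which may be technical.

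The complex is a maternal-effect assembly, which means that its proteins are made from the mother's mRNA in the growing oocyte and serve the embryo before its own genome is read. NLRP5 (also MATER), OOEP (FLOPED) and TLE6 form its core, KHDC3 (FILIA) binds to this core, and PADI6 is required for the cytoplasmic lattices, the fibrous arrays in which the egg stores proteins for the embryo. Embryos of mothers that lack Nlrp5, Ooep, Tle6 or Padi6 stop dividing during early cleavage, whereas loss of Khdc3 or Zbed3 has a milder effect.

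Stored maternal mRNAs are kept, activated or cleared through sequences near their 3′ ends, so the last 30 bases of each mRNA are shown. They were read from the GENCODE M21 transcripts (GRCm38), using the longest protein-coding transcript with a 3′ untranslated region of at least 100 bases. Capitals mark the polyadenylation signal (AATAAA or ATTAAA), at which the mRNA is cut and tailed, and the cytoplasmic polyadenylation element (TTTTAT or TTTTAAT), through which the tail of a stored mRNA can be lengthened. Only the transcript strand was searched.
Nlrp5: gaatgaAATAAAcacagcatttagaaaagc
Ooep: aactcaggaccacaggctatgagtagcata
Tle6: agttgcgtgtAATAAAacaattgaaatggc
Khdc3: ttaaagtattctAATAAAaaaaaaattgca
Padi6: agagccAATAAAgcatggtattctgaatgt
Zbed3: tttttTTTTAATAAAcTTTTATttatctgc
Zbed3 was the only one of the 6 with the element within its last 100 bases, where TTTTAT and TTTTAAT were both found and the latter overlapped the signal. Of the 10179 genes tested that have such a 3′ end, 19.2% held the element within the last 100 bases. A polyadenylation signal was present within the last 40 bases of 77.3% of those genes and of 5 of the 6 complex genes, Ooep being the exception.

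Levels are given as TPM, a measure of transcript abundance that takes account of transcript length and of the library's total, so that genes can be compared with each other. TPM keep no sequencing depth, and the precision behind a single value is unknown. All genes listed summed to 768174 (control replicate 1), 780527 (control replicate 2), 772487 (DMSO replicate 1) and 799166 TPM (DMSO replicate 2), and lists of 4 values follow this order throughout. These sums fall short of the full total of TPM, by amounts that differ between libraries, so part of each library is not listed. The test was limma, a linear model that shares variance information between genes, fitted to log2(TPM + 1) of the genes whose mean reached 1 TPM, and a gene was called at a Benjamini-Hochberg adjusted p under 0.05. Fold changes are differences on that scale, DMSO minus control, on which low genes appear to change less than they do.

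Of the 6 complex genes, 5 passed the filter on low values and were tested. Zbed3 rose 4.32-fold in DMSO-treated embryos, and the other 4 genes tested were not called in either direction. Over all genes, 20.5% of the 12038 genes tested were called, 6.42% higher and 14.1% lower with DMSO, and 40.2% had an unadjusted p under 0.05. The median log2 fold change of the 5 genes was -0.05, beside -0.09 over all genes tested. Its sign was not stable, since it lay between 0.14 and 0.22 when any 1 library was left out (without control replicate 2, Padi6 was not tested), and at 0.25 with quantile normalization, beside 0.01 over all genes. In pooled embryos, fewer embryos that carry a transcript and less of it in each embryo cannot be told apart.

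**Figure D1:**
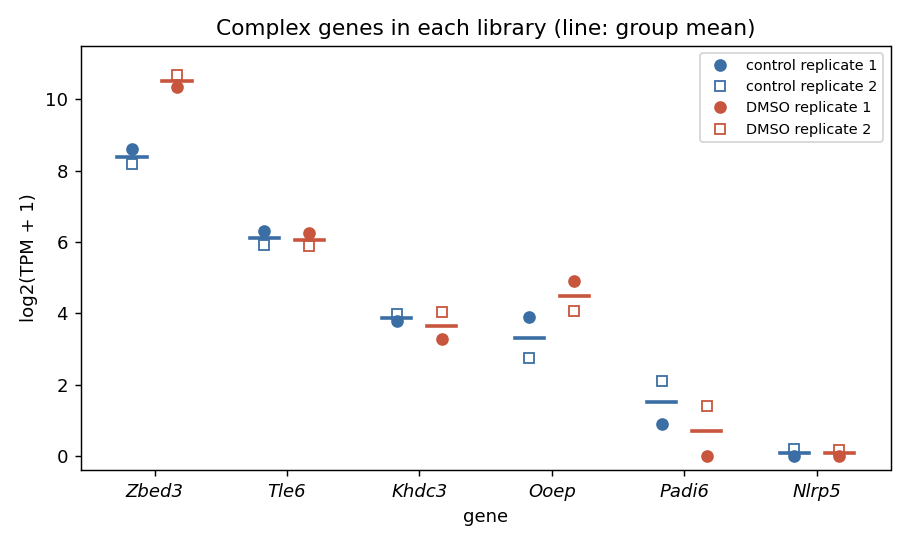
Level of the 6 complex genes in each library, with log2(TPM + 1) on the vertical axis, circles for replicate 1, squares for replicate 2 and a line at each group's mean. The Zbed3 values of the DMSO libraries lie well above those of the control libraries, while those of Tle6 and Khdc3 overlap between groups.

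In control embryos the order of the levels was Zbed3, Tle6, Khdc3, Ooep, Padi6 and Nlrp5. Khdc3 and Ooep overlapped in this order, and every other pair of neighbours was separate in both control libraries. In DMSO-treated embryos Ooep lay above Khdc3, its lowest value of 15.8 TPM being next to the highest Khdc3 value of 15.3 TPM, and Padi6 and Nlrp5 overlapped at the low end.

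Among the core genes, Nlrp5 (ENSMUSG00000015721, chr7:23385889-23441922, plus strand) encodes the NACHT and leucine-rich repeat protein on which the complex is built. It was listed at 0 and 0.142 TPM in control embryos and at 0 and 0.129 TPM in DMSO-treated embryos. The groups overlapped, and the gene was below the filter and was not tested. A value of 0 here does not show that a transcript was missing, since genes that every cell uses were also listed near 0. Actb, the gene of cytoplasmic actin, was listed at 1.09, 0.706, 8.58 and 0 TPM, and Pgk1, of glycolysis, at 0.152, 1.70, 0 and 0 TPM.

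Ooep (ENSMUSG00000032346, chr9:78376109-78378725, minus strand) encodes a small KH-domain-like protein of the core. The control libraries gave 14.0 and 5.66 TPM, the DMSO libraries 28.8 and 15.8 TPM. Both DMSO libraries lay above both control libraries, although DMSO replicate 2 exceeded control replicate 1 by little. Groups did not overlap in 31.1% of all genes tested with DMSO higher, and in 38.7% with DMSO lower. The group means were 9.81 ± 5.87 and 22.3 ± 9.20 TPM (SD, n = 2 each). The log2 fold change was 1.17 (SE 0.48, 95% interval 0.01 to 2.32) with a limma p of 0.0487 and an adjusted p of 0.123, so that Ooep did not pass the threshold. Taking the replicate number as a block, a pairing that the labels do not state, limma called Ooep (adjusted p = 0.0115) and 42.6% of all genes tested. The log2 fold change was 0.58 without control replicate 2 and 0.75 without DMSO replicate 1, beside 1.75 without control replicate 1 and 1.58 without DMSO replicate 2, and none of these was called by limma.

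Tle6 (ENSMUSG00000034758, chr10:81590904-81601073, minus strand) encodes a Groucho-family protein that serves the complex rather than transcription. Its level was 78.4 and 59.2 TPM in control embryos, beside 75.2 and 57.8 TPM in DMSO-treated embryos. The groups overlapped, and replicate 1 was the higher library in each. The log2 fold change was -0.05 (SE 0.29, 95% interval -0.74 to 0.64, limma adjusted p = 0.911), and its sign turned to 0.25 with quantile normalization and to 0.049 when the TPM were rescaled without mitochondrial genes. It was 0.15 without control replicate 1 and 0.14 without DMSO replicate 2.

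Khdc3 (ENSMUSG00000092622, chr9:73101836-73104438, plus strand), the KH-domain partner of the core, was at 12.8 and 14.7 TPM in control embryos, beside 8.77 and 15.3 TPM in DMSO-treated embryos. DMSO replicate 1 was the lowest and DMSO replicate 2 the highest of the 4, so that the control values lay between them. The log2 fold change was -0.22 (SE 0.35, 95% interval -1.06 to 0.62, limma adjusted p = 0.652). It was 0.15 without DMSO replicate 1 and -0.59 without DMSO replicate 2. Of the 31-base words of Khdc3, 36.7% also occur in transcripts of another gene, the read-through gene Gm20509, which overlaps it on the same strand. Reads may have been split between them, and Gm20509 was listed at 0.183, 0, 0 and 0.226 TPM.

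Padi6 (ENSMUSG00000040935, chr4:140727355-140742643, minus strand), the peptidylarginine deiminase-like protein of the lattices, was listed at 0.860 and 3.32 TPM in control embryos and at 0 and 1.65 TPM in DMSO-treated embryos. The groups overlapped, and replicate 2 was the higher library in each. The log2 fold change was -0.80 (SE 0.61, 95% interval -2.26 to 0.66, limma adjusted p = 0.352), and Padi6 reached the filter through the control libraries alone. With a pseudocount of 0.1 TPM in place of 1 it was -2.12, and it was -0.10 without DMSO replicate 1, -1.41 without control replicate 1 and -1.50 without DMSO replicate 2, again not called.

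Zbed3 (ENSMUSG00000041995, chr13:95323612-95337841, plus strand) encodes a BED-type zinc finger protein that was found both with the complex and as a partner of Axin in Wnt signalling. The control libraries gave 386 and 293 TPM, the DMSO libraries 1298 and 1636 TPM. Both DMSO libraries lay far above both control libraries. Its rank among all genes of a library was 304 and 419 in control embryos, and 66 and 42 after DMSO. None of its 31-base words occurs in another gene's transcripts, so that its reads are not shared.

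The group means of Zbed3 were 340 ± 65.5 and 1467 ± 239 TPM (SD, n = 2 each), a ratio of 4.32. The log2 fold change was 2.11 (SE 0.27, 95% interval 1.46 to 2.76) with a limma adjusted p of 0.0181. The size of the change held in every setting tried, between 1.91 and 2.31, but the call did not. With no filter on low values the limma adjusted p was 0.102. It was 0.0518 without control replicate 1, 0.129 without control replicate 2, 0.0605 without DMSO replicate 1 and 0.0293 without DMSO replicate 2.

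The make-up of the complex RNA was compared within each library, where the scaling between libraries has no part. The 6 genes summed to 492, 376, 1411 and 1726 TPM. Without Zbed3 the sums were 106, 83.0, 113 and 90.7 TPM, and the groups overlapped. Zbed3 held 78.4% and 77.9% of the sum in control embryos, beside 92.0% and 94.7% in DMSO-treated embryos, and Tle6 held 15.9%, 15.7%, 5.33% and 3.35%. These shares did not overlap between groups, with an exact permutation p of 0.33 (two-sided), which is the smallest that 2 libraries against 2 allow.

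**Figure D2:**
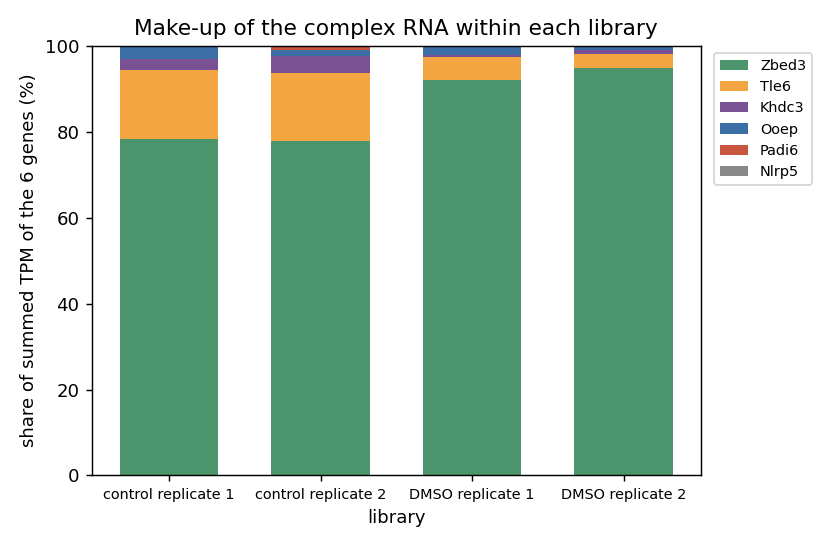
Share of each complex gene in the summed TPM of the 6 genes (percent, vertical axis) in each of the 4 libraries. The Zbed3 share is 78.4% and 77.9% in control embryos, beside 92.0% and 94.7% in DMSO-treated embryos.

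The share of Khdc3 was 2.61% and 3.90% in control embryos, beside 0.621% and 0.886% in DMSO-treated embryos, and did not overlap either (exact permutation p = 0.33). Zbed3 made up most of the sum, so that its rise by itself lowers the share of every other gene. The lower shares of Khdc3 and Tle6 therefore show no change of their own, and the TPM of both overlapped between groups. The share of Ooep was 2.84%, 1.50%, 2.04% and 0.916%, and the groups overlapped (exact permutation p = 0.667). Ratios between members could be formed in all libraries for 6 of the 15 pairs, since the other pairs include a gene listed at 0. The log2 ratio of Tle6 to Zbed3 was -2.30, -2.31, -4.11 and -4.82, a difference of -2.16 between the group means. The log2 ratio of Ooep to Tle6, both of the core, was 1.31 higher in the DMSO libraries. The largest difference, -2.36, was in the log2 ratio of Khdc3 to Zbed3. These 3 ratios did not overlap between groups, each with an exact permutation p of 0.333 and an adjusted p of 0.667 over the 6 pairs, a design in which no pair can pass the threshold. The other 3 overlapped, with differences of 1.51 (Ooep to Khdc3), -0.85 (Ooep to Zbed3) and -0.20 (Khdc3 to Tle6).

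The other genes were taken from lists of partners, families and pathways, and each list is described by its counts beside those of all genes. Of the 9 partners of the complex and the lattices, all were tested and 0 were called by limma at the adjusted threshold, beside 20.5% of all genes tested, while 3 had an unadjusted p under 0.05, beside 40.2%. Quantile normalization gave 1 call, which was higher. With the replicate block limma called 4, all higher, beside 42.6% of all genes tested. With block and quantile normalization together it called 4 higher and 1 lower. The median log2 fold change of the 9 partners was 0.42. It was 0.70 without control replicate 1 and 0.89 without DMSO replicate 2. Without control replicate 2 it was 0.31, and without DMSO replicate 1 it was 0.35. The DMSO libraries lay above the control libraries for 6 of the 9, beside 31.1% of all genes tested. Dppa3 (STELLA, which protects maternal methylation marks) was the most abundant, at 11639, 15346, 10828 and 15216 TPM, with overlapping groups. Nlrp14, which binds the ubiquitin ligase UHRF1 in oocytes, was at 121, 74.5, 212 and 158 TPM, with a log2 fold change of 0.94 and a limma adjusted p of 0.0816.

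Most relatives of Nlrp5 that are read in oocytes were listed at higher levels than Nlrp5 itself. Of the 12 listed, 10 were tested, 3 rose and 0 fell, beside 6.42% higher and 14.1% lower over all genes tested, and their median log2 fold change was 1.36. The count depended on the model. With the replicate block limma called 9 higher and 0 lower, beside 42.6% of all genes tested. With no filter it called 0, as over the whole table. Nlrp9c, the most abundant, was at 205, 174, 611 and 376 TPM (log2 fold change 1.34, limma adjusted p = 0.0331). Nlrp4e was at 44.3, 27.4, 192 and 101 TPM (1.97, limma adjusted p = 0.0263), and 52.8% of its 31-base words occur in other genes. Nlrp9a was at 28.8, 10.8, 121 and 48.6 TPM (2.05, limma adjusted p = 0.0493), a call lost with a pseudocount of 0.1 TPM, without a variance trend and with TPM rescaled without mitochondrial genes (adjusted p = 0.0599, 0.0597 and 0.0517). The DMSO libraries lay above the control libraries for 8 of the 10 tested, and for 31.1% of all genes tested. Nlrp9b, which was not called, reached the filter through the DMSO libraries alone.

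Genes of the zona pellucida, the coat of the egg, and of factors secreted by oocytes showed 4 higher and 0 lower among 9 tested, where 6.42% of all genes tested were called higher, with a median log2 fold change of 0.96. Here too the count moved, with 7 higher and 0 lower under the replicate block, beside 42.6% of all genes tested. With no filter limma called 0. Oosp3 was at 165, 81.7, 1075 and 627 TPM (log2 fold change 2.81, limma adjusted p = 0.0184), and Bmp15, a growth factor that oocytes send to their follicle cells, at 102, 56.0, 544 and 285 TPM (2.36, limma adjusted p = 0.0221). Oosp2 was at 44.9, 37.1, 165 and 97.5 TPM (1.61, limma adjusted p = 0.0271) and Oosp1, the most abundant, at 877, 576, 2086 and 1763 TPM (1.43, limma adjusted p = 0.0273). Zp3, of the zona, was at 1.56, 2.35, 1.44 and 0.956 TPM and was not called.

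**Figure D3:**
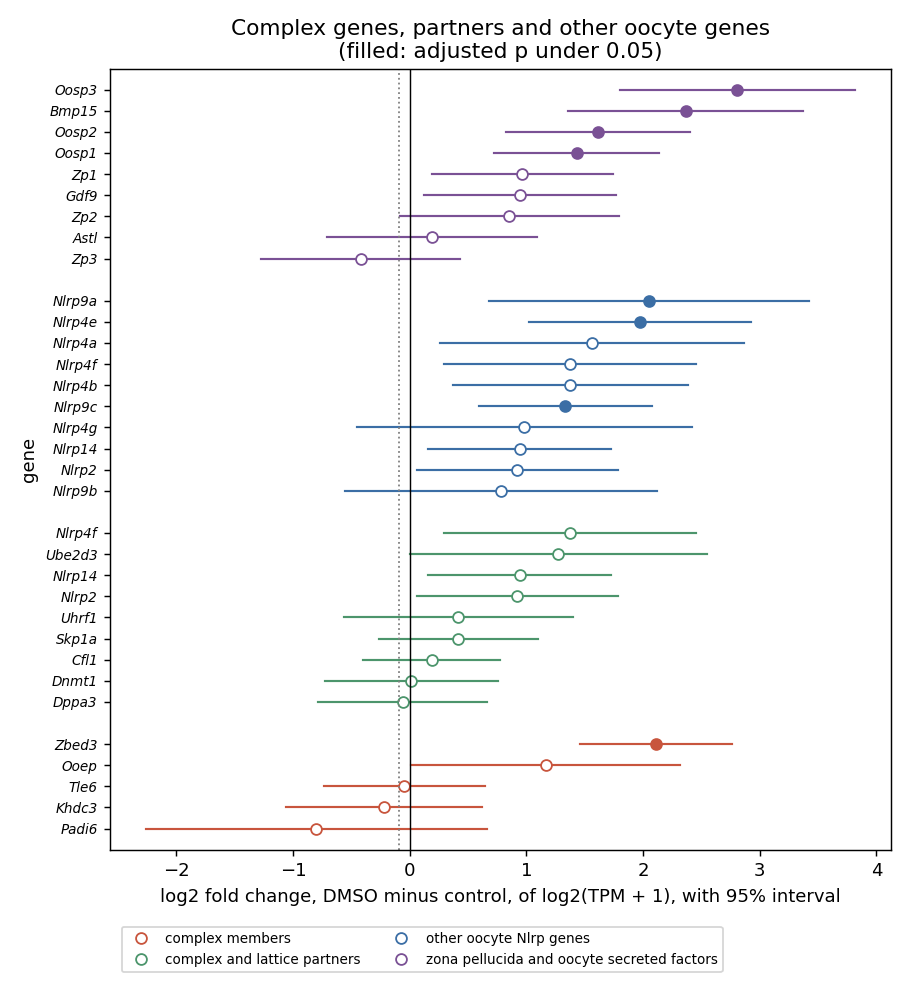
Log2 fold change of log2(TPM + 1), DMSO minus control, with its 95% interval (horizontal axis), for the complex genes and 3 of the gene lists, Nlrp2, Nlrp4f and Nlrp14 being shown in both lists that hold them. Filled circles are genes called by limma, the dotted line is the median of all genes tested (-0.09), and Zbed3 at 2.11 is the only filled circle among the complex genes.

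Few of the other maternal-effect genes were called without a replicate block, and how many depended on the processing. Of the 18 listed 16 were in the table and tested. Of these 1 rose and 1 fell, no more than the 20.5% called over all genes tested, and the median log2 fold change was 0.08. With the replicate block, however, 7 were called higher and 3 lower, beside 42.6% of all genes tested. With block and quantile normalization together the counts were 7 and 2. With a mean of at least 5 TPM they were 3 and 2 of 15 tested, beside 2450 calls among 7470 genes. Quantile normalization gave 4 higher and 0 lower with a median of 0.27, beside 1076 higher and 1121 lower among all 12038 genes tested. Without DMSO replicate 2 the counts were 3 and 0 with a median of 0.25, whereas without DMSO replicate 1 none was called and the median was 0.27. It was 0.15 without control replicate 1. Btg4, an adaptor of the deadenylase that clears maternal mRNA, was at 813, 446, 2207 and 1380 TPM (log2 fold change 1.53, limma adjusted p = 0.0385), and was not called without a variance trend (adjusted p = 0.053). Smarca4 (BRG1, an ATPase of chromatin remodelling) was at 55.2, 43.2, 23.0 and 19.4 TPM (-1.17, limma adjusted p = 0.0364). It was not called with quantile normalization or with TPM rescaled without mitochondrial genes (limma adjusted p = 0.0505 and 0.0501).

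Of 7 transcription factors of the oocyte, 4 were tested and 3 rose, all at low levels, where 6.42% of all genes tested were called higher. Nobox reached the filter through the DMSO libraries alone, so that the count gives no support for a direction of the list. Figla, Sohlh1 and Sohlh2 were below the filter, among them Sohlh1 with the DMSO libraries lower, at 0.214, 0.962, 0.150 and 0 TPM. Nobox was at 0.322, 1.28, 3.92 and 5.54 TPM (log2 fold change 1.71, limma adjusted p = 0.0351, but 0.0521 with a pseudocount of 0.1 TPM) and Lhx8 at 2.87, 3.26, 11.4 and 7.07 TPM (1.30, limma adjusted p = 0.0461). Tbpl2, a germ-cell form of the TATA-binding protein, was at 3.44, 1.56, 23.4 and 7.95 TPM (2.13, limma adjusted p = 0.0408). Taf4b, the most abundant, was at 90.8, 91.8, 54.5 and 55.2 TPM (-0.72, limma adjusted p = 0.0774) and was not called.

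NOBOX is known to bind short elements upstream of oocyte genes, so the RefSeq promoters of the complex genes (GRCm38.p6, 250 bases before to 50 after each start) were searched for TAATTG and TAATTA on both strands, a choice made after the values had been seen. The matches are shown with 12 bases on either side as genome windows in the gene's direction, capitals marking the match, and CAATTA is TAATTG read on the other strand.
Ooep, chr9:78378766-78378795: aggaggtgattcCAATTAagccaccaaatc
Padi6, chr4:140742618-140742647: caccgtcctaggCAATTActctggtgggta
Nlrp5, chr7:23385688-23385717: aagaatacaatcTAATTAaggggaggggcg
Counted from the RefSeq start, the letters begin at position -195 in Ooep, -189 in Nlrp5 and 8 in Padi6, inside the transcript. For Ooep the RefSeq start lies at 78378588, downstream of the GENCODE start at 78378725 that bounds the gene above, and from the latter the match begins at -58. TAATTG was found in 9.22% and TAATTA in 6.12% of the 27025 genes with a promoter window. No match was found in the windows of Khdc3, Tle6 and Zbed3, which says only that these letters are not in them. Whether NOBOX acts on any of the complex genes was not tested.

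The gene families of the remaining members gave few calls, where 20.5% of all genes tested were called and 40.2% had an unadjusted p under 0.05. Of 4 KH-domain relatives of Khdc3 and Ooep, 1 fell, which was Dppa5a, a gene of pluripotent cells, at 1783, 2756, 435 and 703 TPM (log2 fold change -2.00, limma adjusted p = 0.0217), with 57.2% of its 31-base words in other genes. Of the Tle relatives 4 were tested and limma called 0, also at an unadjusted p under 0.05, and Tle4, the most abundant, was at 19.8, 16.5, 18.0 and 14.8 TPM. Of the Padi relatives only Padi2 passed the filter, at 2.06, 0.753, 0.890 and 0.641 TPM, and it was not called. Of the Zbed relatives 2 were tested and limma called 0 (1 at an unadjusted p under 0.05), and Zbed4, the most abundant, was at 4.35, 6.19, 2.15 and 2.62 TPM, with 61.0% of its words in other genes. The difference between Zbed3 and these relatives was not tested.

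Pathways tied to the complex were taken from 2 further lists. The complex acts on actin through cofilin, and of the 7 genes for cofilins and their regulators that were tested, limma called 0 (1 at an unadjusted p under 0.05), beside 20.5% and 40.2% of all genes tested. Cfl1, the most abundant, was at 149, 175, 184 and 185 TPM (log2 fold change 0.19, limma adjusted p = 0.58). ZBED3 binds Axin, the scaffold of the β-catenin destruction complex, and of 6 genes tested in that list 1 fell, about the 14.1% called lower over all genes tested. This was Gsk3b, the kinase that marks β-catenin for destruction, at 93.9, 90.6, 42.0 and 50.5 TPM (-0.99, limma adjusted p = 0.0421). Without a replicate block the call was lost under 3 other scalings and without a variance trend, with limma adjusted p-values of 0.0523 (median-ratio scaling), 0.0943 (quantile normalization), 0.065 (TPM rescaled without mitochondrial genes) and 0.0618 (no trend). With the block it was made, also with quantile normalization (limma adjusted p = 0.0111 and 0.0375). Csnk1a1, the most abundant, was at 299, 231, 296 and 247 TPM, and Axin1 and Axin2 were not called, at 23.5, 20.8, 16.3 and 15.7 TPM and at 8.67, 7.96, 15.5 and 15.5 TPM.

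Over these lists, complex genes aside, 14 genes were called, 11 higher and 3 lower. Of all genes tested 20.5% were called, 6.42% higher and 14.1% lower. The distinct genes tested over the lists were not counted, so the 14 are given without a share and show no excess of calls. None was called without control replicate 1, without control replicate 2 or without DMSO replicate 1. Without DMSO replicate 2, 14 genes were called, but Oosp1, Smarca4, Nobox, Lhx8 and Gsk3b were not among them. Over all genes tested, 773 were higher and 1697 lower, whereas quantile normalization gave 1076 and 1121, with the median of all genes at 0.01 in place of -0.09.

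The samples were checked against markers of the stage and of other cells. The 5 markers of 2-cell embryos summed to 265, 178, 795 and 555 TPM, the most abundant being Zfp352 at 143, 89.0, 551 and 373 TPM. Of the 5, 2 were called higher, beside 6.42% of all genes tested, namely Zfp352 and Usp17lc (log2 fold change 2.00 and 1.30, limma adjusted p = 0.0209 and 0.0319). The other 3 were not called. Zscan4c had group means of 36.7 ± 4.76 and 64.5 ± 18.0 TPM (SD, n = 2 each) and a log2 fold change of 0.78, without overlap of the libraries, and both Zscan4d and Tdpoz4 overlapped between groups, at 8.62, 8.28, 9.24 and 7.12 TPM and at 13.3, 5.74, 19.4 and 10.3 TPM. The 5 oocyte markers, all of which are also in the list of zona and secreted factors, summed to 1075, 691, 2802 and 2164 TPM, led by Oosp1. Both sums, but not every marker in them, were higher in the DMSO libraries, as Zbed3 was, and their part in the Zbed3 result was not tested.

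Markers of other cells were mostly low, the oviduct glycoprotein gene Ovgp1 and the sperm protamine gene Prm2 having the highest means over the 4 libraries. The 8 markers of cumulus and granulosa cells summed to 2.00, 0.932, 2.42 and 2.19 TPM, with 6 of them below 1 TPM in every library, Amh at 0 in all 4, and Tnfaip6 the most abundant. The 4 markers of the oviduct summed to 19.7, 22.4, 28.3 and 36.6 TPM. Ovgp1 made up most of this, at 17.9, 19.5, 26.2 and 33.2 TPM, which is above Khdc3 in every library, while Foxj1 and Krt19 stayed below 1 TPM. The 3 blood markers summed to 4.08, 1.60, 3.80 and 4.52 TPM, led by Hba-a1, with Hbb-bs listed at 0 in 3 libraries. Of the 3 sperm markers, which summed to 2.84, 3.38, 13.4 and 8.48 TPM, Prm2 and Tnp1 were called higher (log2 fold change 1.39 and 1.35, limma adjusted p = 0.0408 and 0.0429) and Prm1 stayed below 1 TPM, where 6.42% of all genes tested were called higher. Prm2 was at 2.56 and 2.86 TPM in control embryos and had a mean of 8.91 TPM in DMSO-treated embryos, lying above Khdc3 in DMSO replicate 1. Tnp1 reached the filter through the DMSO libraries alone, at 0.281, 0, 2.08 and 1.69 TPM, so that its call gives no support for a direction, and it was not called with a pseudocount of 0.1 TPM (limma adjusted p = 0.0845). Zfp352, Usp17lc, Prm2 and Tnp1 were not called without control replicate 1, without control replicate 2 or without DMSO replicate 1. Tnp1 was below the filter without either DMSO library, so that its call was made in none of the 4 fits that leave out a library.

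The genome neighbours of the complex genes were compared with them, taking the 3 nearest protein-coding genes of the table on each side. Of these 36 genes 19 were tested, 1 rose and 3 fell, a share near the 20.5% called over all genes tested. Beside Zbed3, which rose, Aggf1, an angiogenic factor gene, fell from 90.4 and 110 TPM to 31.2 and 45.0 TPM (log2 fold change -1.39, limma adjusted p = 0.0289). It was not called with quantile normalization. Beside Nlrp5, which was listed near 0, lies Nlrp4e, which rose as given above.

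**Figure D4:**
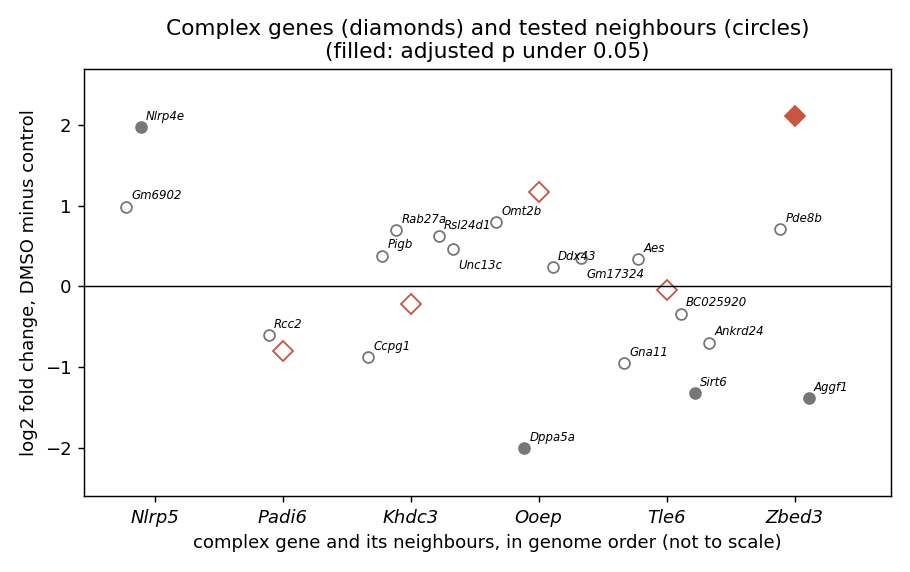
Log2 fold change, DMSO minus control (vertical axis), of the tested complex genes (diamonds) and of their tested neighbours (circles), placed in genome order around each gene and not to scale. Filled symbols were called by limma, and the filled neighbours of Zbed3, Ooep and Tle6 lie below 0, whereas Zbed3 lies at 2.11.

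Ooep and its adjacent gene Dppa5a, which both encode KH-type proteins on the minus strand, had log2 fold changes of 1.17 and -2.00, the second of which was called. Beside Tle6, Sirt6, a histone deacetylase, was at 12.8, 18.8, 5.33 and 5.90 TPM (-1.33, limma adjusted p = 0.0376) and was not called after the TPM were rescaled without mitochondrial genes. None of the 4 neighbours was called without control replicate 1, without control replicate 2 or without DMSO replicate 1, and without DMSO replicate 2 Sirt6 was not called either (limma adjusted p = 0.0689). The other neighbours whose mean reached 10 TPM were Gm6902, Omt2b, Ddx43, Ccpg1, Rsl24d1, Unc13c, Gna11, Aes and Rcc2, and none of these was called. Omt2b, an oocyte gene near Ooep, was the most abundant of them, at 1026, 801, 1416 and 1746 TPM.

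The cytoplasmic polyadenylation element of Zbed3 was followed over the table, a choice also made after the values had been seen. For the 1952 genes tested that hold the element the median log2 fold change was -0.04, with 6.15% called higher and 13.6% called lower. The 8227 genes without it had a median of -0.10, with 6.38% called higher and 14.9% lower. Zbed3, at 2.11, lay in the upper tail of both groups.

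**Figure D5:**
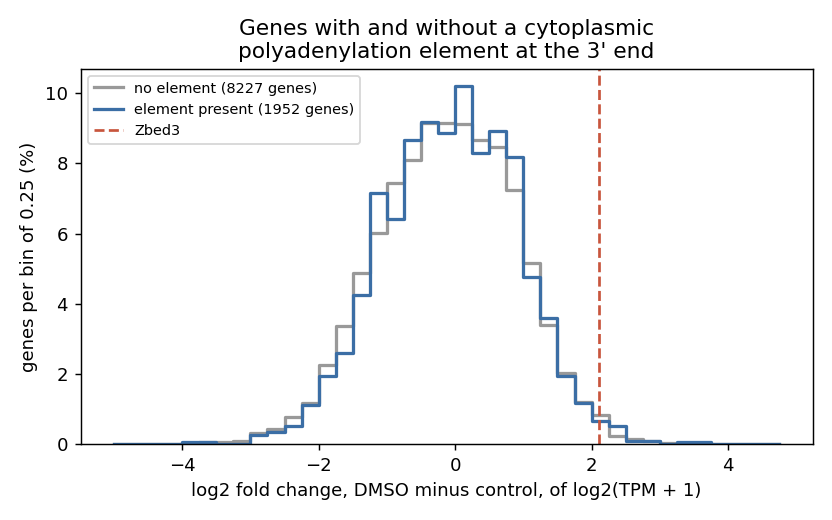
Distribution of the log2 fold change (horizontal axis, bins of 0.25) in genes with and without a cytoplasmic polyadenylation element in the last 100 bases, as a percent of each group of genes. The curves largely overlap, and the dashed line marks Zbed3 at 2.11.

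Genes whose pattern over the 4 libraries was nearest to each complex gene were taken from the 5667 genes whose mean reached 10 TPM, by Euclidean distance between centred log2(TPM + 1) values. Nearest to Zbed3 were Fgf7 (distance 0.185), a growth factor gene at 5.15, 3.98, 23.6 and 26.7 TPM, and Gm38153 (0.286). Nearest to Ooep were Gm10662 and Gm5891, both at a distance of 0.092 with identical values, and nearest to Khdc3 were Pecam1 (0.046) and Wdr62 (0.073). Nearest to Tle6 were Ncor1 (0.030), a corepressor gene, and Gm4779 (0.049), and nearest to Padi6 were Urm1 (0.153) and Rpl10a (0.218). The flat profile of Nlrp5 was nearest to Khsrp (0.075) and Thumpd3 (0.084), which are far more abundant, so that the likeness is one of flatness alone. No complex gene was among these nearest genes of another. Little can be read from this, since only 2 were kept for each gene and Padi6 and Nlrp5 lay below the limit of 10 TPM.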

How the data were processed

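Per the labels and the methods, cDNA of pooled 2-cell embryos was amplified with a SMARTer low-input kit and sequenced on an Illumina HiSeq. The authors pseudomapped reads to Ensembl transcripts (GRCm38) with kallisto, summed transcripts per gene with tximport and deposited TPM values. The submitters' processing notes also name STAR, SAMtools, bedtools and mm10. The study tested estimated counts, and no count test can be run on TPM. No column of per-sample values was left out. The depth of the libraries is unknown.

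Groups follow the labels. The limma package (3.58.1, R 4.3.3) was fitted to log2(TPM + 1) of genes whose mean reached 1 TPM (variance trend, no replicate block, Benjamini-Hochberg over all 12038 genes, threshold 0.05), 2 libraries against 2. The code was run on simulated data with less spread than between the control libraries, so that run does not measure power in these data. Shares and ratios within libraries were compared by exact permutation. GENCODE M21 named 29668 of the 30049 identifiers, and 31-base words shared between genes were counted on its transcripts. Promoters came from RefSeq. Other steps ran in Python 3.11.15 (numpy 2.4.6, pandas 2.3.3, matplotlib 3.10.9, scipy 1.17.1).

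The complex genes, the lists and the tests were chosen with earlier results of these data known. Named are the 6 genes, the called genes (up to 6) and the most abundant gene of each list, neighbours called or whose mean reached 10 TPM, and the 2 nearest patterns for each complex gene. Nlrp14, Zp3, Axin1, Axin2, Actb, Pgk1, Gapdh, Hprt and Gm20509 were named after their values were seen. List members named outside these rules were Nlrp2, Nlrp4f, Nlrp9b, Figla, Sohlh1, Sohlh2, Zscan4c, Zscan4d, Tdpoz4, Amh, Foxj1, Krt19, Hbb-bs and Prm1. Alternatives were a pseudocount of 0.1 TPM, no filter, a mean of at least 5 TPM, no variance trend, median-ratio scaling, quantile normalization, TPM rescaled without mitochondrial genes, a replicate block with and without quantile normalization, and leaving out each library.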

Additional observations from a re-analysis of the deposited data

How the results depend on the processing

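Over 13 alternatives, the log2 fold change of Zbed3 stayed positive, but its call was lost with no filter (2.11, limma adjusted p = 0.102) and in 3 of the 4 fits that leave out a library, whose values ranged from 1.91 to 2.31. With no filter 22257 genes were tested and limma called 0 of them in the whole table, 0 complex genes and 0 genes of the lists, against 2470, 1 and 14, although 5368 had an unadjusted p under 0.05. Leaving out a library gave 3 to 2091 calls in the table (3, 3 and 15 without control replicate 1, control replicate 2 and DMSO replicate 1), 0 to 1 among the complex genes and 0 to 14 in the lists. In these fits the lone library is assumed to vary like the other group. The labels do not say that replicate numbers mark shared animals or batches, and same-numbered libraries deviated together (r = 0.35 across 12038 genes, which are not independent). A replicate block, which takes this number as a term, gave 5132 calls in the table, 2 among the complex genes and 36 in the lists, and with block and quantile normalization together 4732, 2 and 34. The second complex gene was Ooep, at 1.17 with the block (limma adjusted p = 0.0115) and 1.28 with both (adjusted p = 0.0102). The sign of Tle6 turned with quantile normalization (0.25), without mitochondrial genes (0.049) and with block and quantile normalization (0.25), and leaving out a library gave -0.25 to 0.15. For Khdc3 the latter range was -0.59 to 0.15, for Ooep 0.58 to 1.75 and for Padi6 -1.50 to -0.10, and without control replicate 2 Padi6 was below the filter. The median of the complex genes was 0.56 with a mean of at least 5 TPM, where Padi6 is not tested, against -0.05, and 0.14 to 0.22 on leaving out a library. Except for these fewer genes and libraries, the cause was not tested. With 2 libraries a group and TPM that keep no depth, low genes such as Nlrp5 and Padi6 cannot be resolved.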

Other observations

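Some values belong to no comparison of the complex genes. Log2(TPM + 1) values correlated across the genes tested (which are not independent replicates) at r = 0.963 within the control group, 0.948 within the DMSO group and 0.812 to 0.914 between libraries of different groups. Mitochondrially encoded genes summed to 82954, 96781, 118298 and 173391 TPM. The groups did not overlap in that sum. Other genes of common use were Gapdh, at 127, 73.2, 86.4 and 89.0 TPM with overlapping groups, and Hprt, at 784, 1114, 316 and 428 TPM, which was called lower (log2 fold change -1.34, limma adjusted p = 0.0309) but not with quantile normalization (adjusted p = 0.0503), without control replicate 1, without control replicate 2 or without DMSO replicate 1. These genes were chosen after their values had been seen. Markers of the blastocyst lineages, which come later in development, summed to 69.2, 54.7, 46.2 and 49.9 TPM, and of the 4 tested limma called 0 (2 at an unadjusted p under 0.05), beside 20.5% and 40.2% of all genes tested.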
